A study of Mus musculus with 2 samples.

Results

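Potassium channels are membrane pores that let potassium ions leave the cell, and their 97 genes on this array were described in ureters of mouse embryos that lack Rbpj in the ureteric mesenchyme. The genes were taken by name: every spot that is no control spot and whose gene name starts with Kcn, plus Abcc8 and Abcc9, the sulfonylurea receptors that join a Kcn pore. They made up 97 of 31791 gene names, 140 of 39429 probes and 167 of 43020 spots. A gene counted as measured where a probe was well above background in the channel of 1 genotype, Rbpj-cKO or control, on each of the 2 arrays. By that filter 60 of the 97 genes were measured, through 77 of their 140 probes.

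Rbpj-cKO embryos were Tbx18(cre/+);Rbpj(fl/fl), and controls were Rbpj(fl/?), all of strain NMRI at E18.5. Rbpj codes for the transcription factor that, together with activated Notch receptors, switches on Notch targets. The Tbx18 locus drives the cre in the mesenchyme that forms the smooth muscle and connective tissue of the ureter, not in its urothelium. The labels list a cre allele for the Rbpj-cKO embryos and none for the controls, so loss of Rbpj and the altered Tbx18 allele cannot be told apart. Male RNA of both genotypes shared replicate 1, with Rbpj-cKO in red (AlexaFluor647), and female RNA shared replicate 2, with Rbpj-cKO in green (AlexaFluor555). Sex and dye orientation therefore cannot be told apart either. How many embryos went into each RNA is not stated in the labels. The 2 arrays hold RNA of different sexes, so their spread mixes differences between embryos with technical ones. The p-values and intervals draw mostly on a spread that limma pools over all features (10.3 prior and 1 residual degrees of freedom). They therefore do not measure a gene's own spread between the 2 arrays alone.

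In smooth muscle, open potassium channels hold the membrane at a negative voltage and keep voltage-gated calcium channels shut, so that the cell relaxes. The family falls into inward rectifiers, voltage-gated channels, calcium- or sodium-activated channels and tandem-pore leak channels, together with auxiliary subunits that tune them. The ATP-sensitive channel joins an inward rectifier pore to a sulfonylurea receptor and couples the metabolic state of the cell to its voltage. In the ureter, pacemaker activity and contraction of the muscle depend on the balance of such currents with depolarising ones.

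Each ratio below is the log2 of Rbpj-cKO over control, and its error is the SD over the 2 arrays with the 95% interval from limma. Each level is the log2 intensity of a channel, which depends on the probe and is never compared between genes. Rbpj itself had ratios of -1.58 (male) and -0.93 (female), with a mean of -1.25 and an adjusted p of 0.0760 (limma, Benjamini-Hochberg over all features). Of 20989 features, 27 passed the threshold of 0.05 (0.129%), and each of them differed by at least 1.22 in mean ratio. None passed with Agilent's processed signals, median centring, no filter on dim probes or the series value table. Median signal over background was 6.78 and 6.38 in red and 13.3 and 11.2 in green, no spot was saturated, and the number of arrays limits the precision. Across all features the ratios of the arrays correlated at r = -0.18, a description over genes, which are not replicates.

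None of the 60 measured potassium channel genes passed the adjusted threshold (0 of 60 in either direction, beside 0.129% of all features, 0.0858% lower and 0.0429% higher). The smallest adjusted p among them was 0.660, for Kcnj8. At an unadjusted p of 0.05, 6 of 60 passed (10%, beside 3.37% of all features): Kcnj8, Kcnd2, Kcnj12 and Abcc9 with lower levels in Rbpj-cKO and Kcns3 and Kcnip4 with higher ones. The 4 lower genes stood beside 1.9% and the 2 higher genes beside 1.47% of all features. The count was 12 of 60 with Agilent's processed signals (4.02% of all features) and 3 of 60 with median centring (1.08%). Ratios were below 0 on both arrays for 17 genes (28.3%, beside 19.7% of all features) and above 0 on both for 12 (20%, beside 21.7%), and the arrays had opposite signs for 31 (51.7%, beside 58.6%). These counts include genes that passed the filter only through the group where they are high. Of the 53 genes above background in all 4 channels, 14 were below 0 on both arrays and 9 above. The share of all features under that filter was not counted. Only Kcnip4 was at least 1.5-fold higher on both arrays (beside 0.205% of all features), none was that much lower (beside 0.434%), and none passed 1.5-fold in opposite directions (beside 1.04%). The median of the mean ratio was -0.06 over the 60 genes and 0.01 over all features. The plot of ratios by gene gives both arrays for 57 of them.

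**Figure D1:**
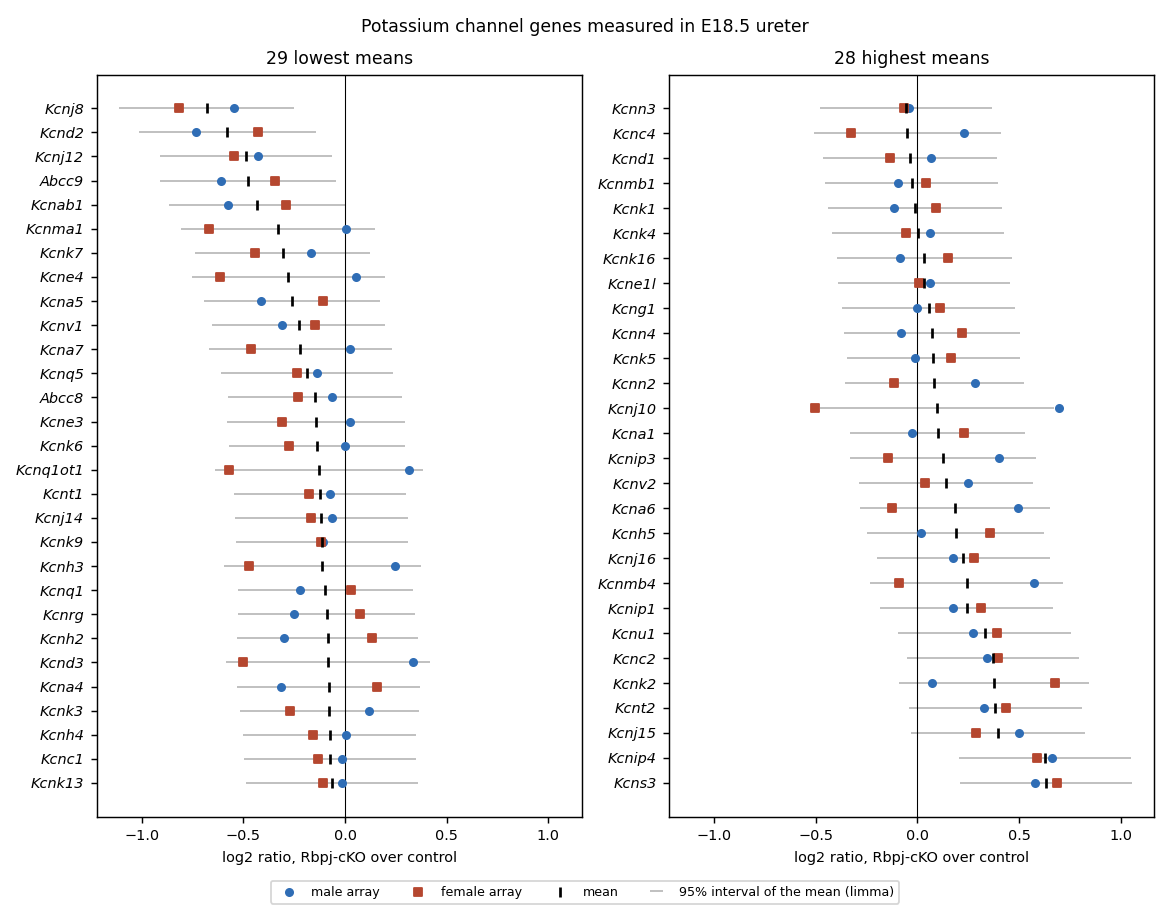
Log2 ratio of Rbpj-cKO over control (x axis) for 57 of the 60 measured potassium channel genes, ordered by their mean, with the male array as circles, the female array as squares, the mean as a bar and the 95% interval of the mean from limma in grey. Kcnj8, Kcnd2, Kcnj12 and Abcc9 have intervals below 0, Kcnip4 and Kcns3 have intervals above 0, and the arrays lie on opposite sides of 0 for 28 of the genes plotted.

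Detection was counted by family. Among voltage-gated alpha subunits 20 of 30 genes were measured, among tandem-pore leak channels 10 of 14, and among calcium- or sodium-activated channels 7 of 8, with Kcnn1 missing. Inward rectifiers were measured for 6 of 15 genes, modulatory alpha subunits, which form no channel on their own, for 4 of 10, and auxiliary subunits for 9 of 16. Both sulfonylurea receptors were measured. Of the 60 measured genes, 53 were well above background in all 4 channels and 7, among them Kcnv1, Kcnt1, Kcnc2, Kcnj16, Kcnc1 and Kcnh5, missed it in at least 1. For 27 genes no probe was well above background in any channel. Kcnh5, a voltage-gated subunit, missed it in both control channels and was not well above background there. It passed the filter through the Rbpj-cKO channels alone, so no fold or test is drawn from its means of 7.35 in Rbpj-cKO and 7.16 in control.

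**Figure D2:**
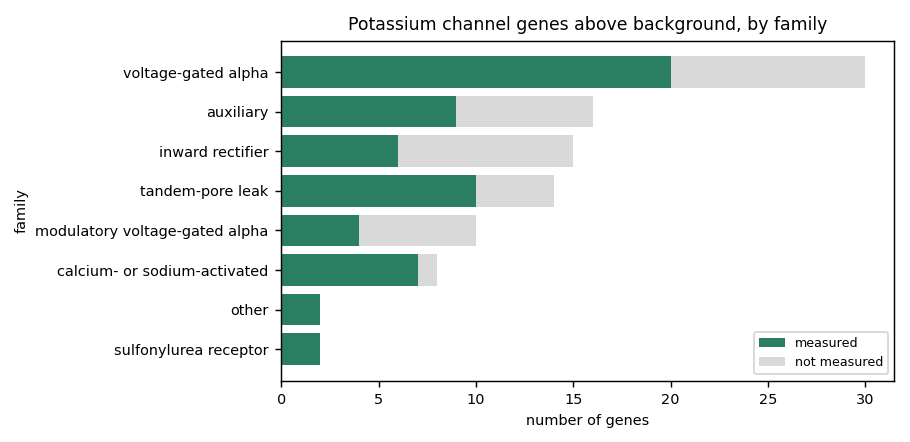
Number of potassium channel genes (x axis) in each family (y axis), split into genes measured on the arrays (green) and genes not measured (grey). Inward rectifiers have 6 of 15 genes measured and calcium- or sodium-activated channels 7 of 8.

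The ATP-sensitive channel of smooth muscle has Kcnj8 as its pore and Abcc9 as its sulfonylurea receptor, and both had lower levels in Rbpj-cKO on each array. Kcnj8 read 10.05 (male) and 10.15 (female) in Rbpj-cKO and 10.60 and 10.97 in control. Both Rbpj-cKO values lay below both control values. Its ratios were -0.55 and -0.82, with a mean of -0.68 ± 0.19 (SD, n = 2), a 95% interval of -1.11 to -0.25 and an adjusted p of 0.660. That is 1.60-fold lower. Abcc9 read 12.62 and 12.86 in Rbpj-cKO and 13.23 and 13.21 in control, again without overlap. Its ratios were -0.61 and -0.35, with a mean of -0.48 ± 0.19 (n = 2), a 95% interval of -0.91 to -0.05, an adjusted p of 1.00 and a fold of 1.39. Among the measured genes 11 of 60 had both Rbpj-cKO values below both control values (18.3%, beside 12.5% of all features) and 8 had them above (13.3%, beside 14.9%).

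Kcnj11 and Abcc8 form the ATP-sensitive channel of pancreatic beta cells. Both Kcnj11 probes were not well above background in any channel, so it has no ratio here. Abcc8 read 8.58 and 8.29 in Rbpj-cKO and 8.64 and 8.52 in control, and the groups overlapped. Its mean ratio was -0.15 ± 0.12 (n = 2).

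Kcnj8 and Abcc9 are neighbours on chromosome 6, and Kcnj11 and Abcc8 on chromosome 7. In RefSeq order 12 pairs of potassium channel genes are neighbours, both genes were measured in 5 pairs, and the mean ratios had the same sign in 3 of the 5. The 250 bases before the start of Kcnj8 and of Abcc9 (RefSeq, GRCm38.p6, minus strand) are shown because these neighbouring genes form the channel described above. Capitals mark TGGGAA, the core bound by the RBPJ protein, and CAGCTG, an E-box of the kind bound by basic helix-loop-helix proteins. The third motif searched was the CArG box, the element bound by serum response factor. Both strands were searched, and the motifs do not overlap here.
Kcnj8, chr6:142571615-142571864: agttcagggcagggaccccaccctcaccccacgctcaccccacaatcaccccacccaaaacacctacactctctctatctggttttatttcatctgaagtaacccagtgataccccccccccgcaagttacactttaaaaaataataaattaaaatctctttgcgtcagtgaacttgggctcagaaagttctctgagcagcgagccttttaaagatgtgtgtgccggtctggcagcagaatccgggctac
Abcc9, chr6:142702275-142702524: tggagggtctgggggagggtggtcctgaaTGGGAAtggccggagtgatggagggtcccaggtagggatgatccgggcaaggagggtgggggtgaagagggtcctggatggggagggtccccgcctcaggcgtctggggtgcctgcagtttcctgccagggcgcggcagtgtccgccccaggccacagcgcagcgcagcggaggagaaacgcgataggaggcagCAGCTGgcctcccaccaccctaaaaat
The Abcc9 window held TGGGAA at -221 to -216 and CAGCTG at -27 to -22, counted from the start site, and the Kcnj8 window held none of the 3 motifs. Of 32851 promoters of 250 bases, 21.6% held TGGGAA, 13.0% CAGCTG and 1.47% a CArG box. RefSeq promoters matched 71 of the 97 genes, with 96 starts, of which 21.9% held TGGGAA, 24.0% CAGCTG and none a CArG box. These matches are letters in a window and say nothing of binding.

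Other inward rectifiers had ratios on both sides of 0. Kcnj12, a strong inward rectifier of muscle and brain, read 8.36 and 8.17 in Rbpj-cKO and 8.79 and 8.71 in control. The groups did not overlap. Its mean ratio was -0.49 ± 0.08 (n = 2), with a 95% interval of -0.91 to -0.06 and an adjusted p of 1.00. Kcnj15, a rectifier known from kidney epithelium, read 11.47 and 11.69 in Rbpj-cKO and 10.97 and 11.40 in control, with a mean ratio of 0.39 ± 0.15 (n = 2). Its second probe was not well above background in any channel. Kcnj10, a rectifier of glia and kidney tubules, had ratios of 0.70 (male) and -0.50 (female). At the 1 probe kept per gene this was the widest gap between the arrays among the 60 genes. The second probe of Kcnq1ot1, with 0.19 and -1.09, had a wider one. Kcnj2, known from vascular smooth muscle, was not well above background in any channel.

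**Figure D3:**
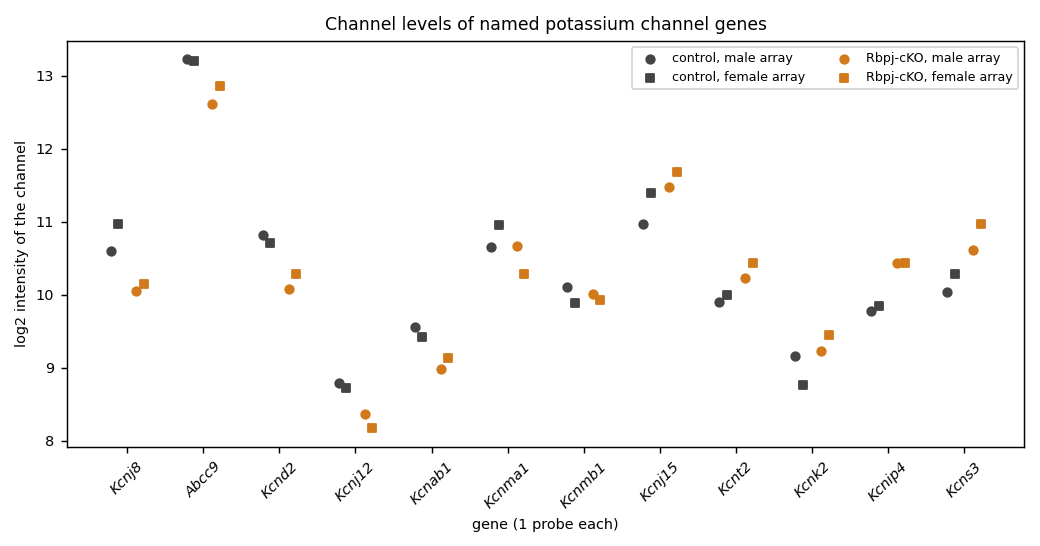
Log2 channel intensity (y axis) of 12 potassium channel genes (x axis, 1 probe each), with controls in grey, Rbpj-cKO in orange, the male array as circles and the female array as squares. Heights are not comparable between genes. Within Kcnj8, Abcc9, Kcnd2, Kcnj12 and Kcnab1 both Rbpj-cKO values lie below both control values. Within Kcns3, Kcnip4, Kcnt2, Kcnj15 and Kcnk2 both lie above.

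Voltage-gated alpha subunits form the pores that open on depolarisation, and their 20 measured genes had a median ratio of -0.07. Kcnd2, a pore of the fast transient A-type current, read 10.08 and 10.28 in Rbpj-cKO and 10.82 and 10.70 in control. The groups did not overlap. Its ratios were -0.73 and -0.43, with a mean of -0.58 ± 0.22 (n = 2), a 95% interval of -1.01 to -0.14 and an adjusted p of 1.00. Kcnd3, another A-type pore, had ratios of 0.33 and -0.50 and was named after its values were seen. Kcnd subunits work together with the calcium-binding Kcnip proteins and the membrane proteins Dpp6 and Dpp10.

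Kcnip4 read 10.43 and 10.43 in Rbpj-cKO and 9.77 and 9.84 in control, so that the groups did not overlap. The mean ratio of Kcnip4 was 0.63 ± 0.05 (n = 2), with a 95% interval of 0.20 to 1.05 and an adjusted p of 0.800. A second Kcnip4 probe gave 0.72 and 0.28. With the mean of both probes, or with median centring in place of loess, Kcnip4 no longer passed 1.5-fold on both arrays. Kcnip1 had ratios of 0.17 and 0.31 and a mean of 0.24, Kcnip3 had ratios of 0.40 and -0.15, and Kcnip2 was not measured. A second Kcnip3 probe gave -0.07 and -0.12. Dpp6 had a mean ratio of 0.01 and Dpp10 of 0.08, or 0.31 with Agilent's processed signals; Dpp10 was above background in 1 of 2 control channels. The genes Kcnd2 and Kcnip4 thus lay on opposite sides of 0 on both arrays. RNA of the whole ureter does not show whether Kcnd2 and Kcnip4 share cells or a channel complex. The difference between them was not tested.

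Kcns3 encodes a silent alpha subunit that forms no channel alone and modifies delayed rectifier channels. It read 10.61 and 10.97 in Rbpj-cKO and 10.03 and 10.29 in control, without overlap. Its ratios were 0.58 and 0.69, with a mean of 0.63 ± 0.07 (n = 2), a 95% interval of 0.21 to 1.06 and an adjusted p of 0.783. It was the highest mean among the 60 genes. Kcnv1, also a modulatory subunit, had the lowest mean of its family at -0.23, and -0.58 with Agilent's processed signals. Kcnv1 was above background on both control channels and on 1 of 2 Rbpj-cKO channels. It thus passed the filter through the group where it is high, and no test is drawn from it.

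Among other voltage-gated channels of smooth muscle, Kcna5, a delayed rectifier, read 8.53 and 8.88 in Rbpj-cKO and 8.94 and 8.99 in control. Its mean ratio was -0.26 ± 0.21 (n = 2), and a second probe gave -0.38 and 0.24. Kcnab1, a cytoplasmic beta subunit of such channels, read 8.98 and 9.14 in Rbpj-cKO and 9.56 and 9.43 in control, without overlap. Kcnab1 had a mean ratio of -0.43 ± 0.20 (n = 2). Kcnq5, which opens at voltages near rest and restrains contraction, read 8.97 and 9.14 in Rbpj-cKO and 9.10 and 9.38 in control. The groups overlapped, and the mean ratio was -0.19 ± 0.07 (n = 2). Kcnc2, a fast delayed rectifier of neurons, had ratios of 0.34 and 0.40 and was above background on 1 of 2 arrays in the control channel. Its mean was 0.37, and 1.19 with Agilent's processed signals.

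Kcnq1ot1 is a long noncoding RNA read antisense to Kcnq1 from the imprinted locus. Its probes lie on the minus strand of chromosome 7 and the Kcnq1 probe on the plus strand. Its ratios were 0.32 and -0.57, and the second probe gave 0.19 and -1.09. The arrays were thus on opposite sides of 0 at both probes. Kcnq1 itself had ratios of -0.22 and 0.03. Kcnrg, a proposed regulator of voltage-gated channels, had a mean ratio of -0.09.

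Calcium-activated channels link calcium entry to repolarisation. Kcnma1, the pore of the large-conductance channel, read 10.66 and 10.29 in Rbpj-cKO and 10.66 and 10.96 in control. At the probe kept for Kcnma1 the ratios were 0.01 and -0.67, so only the female array was low there. The mean of that probe was -0.33 ± 0.48 (n = 2). Another Kcnma1 probe was low on both arrays, with ratios of -0.20 (male) and -0.19 (female) and a mean of -0.20. The remaining probe gave 0.36 (male) and -0.49 (female), with a mean of -0.06. The mean of Kcnma1 over all 3 probes was -0.20. Kcnmb1, its smooth muscle beta subunit, read 10.01 and 9.93 in Rbpj-cKO and 10.11 and 9.88 in control. Its mean ratio was -0.03 ± 0.10 (n = 2), whose sign turned to 0.03 with Agilent's processed signals and to 0.02 with median centring. Kcnmb4, a beta subunit known from brain, had ratios of 0.58 and -0.09, and a second Kcnmb4 probe gave 0.04 and -0.11. Lrrc55, a leucine-rich auxiliary protein of the same channel, had ratios of -0.63 and -0.74 and a mean of -0.69, or -1.91 with Agilent's processed signals. It was above background on both control channels and on 1 of 2 Rbpj-cKO channels. Lrrc55 thus passed the filter through the group where it is high, and no test is drawn from it.

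Kcnn3, a small-conductance channel, read 10.36 and 10.39 in Rbpj-cKO and 10.40 and 10.46 in control, with a mean ratio of -0.06 ± 0.02 (n = 2). Kcnt2, a sodium-activated channel, read 10.23 and 10.43 in Rbpj-cKO and 9.90 and 9.99 in control. The groups did not overlap, and the mean ratio was 0.38 ± 0.08 (n = 2). A second Kcnt2 probe gave a mean of 0.08, and the mean of both was 0.23. Kcnu1, a channel known from sperm, had ratios of 0.27 and 0.39.

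Genes with several probes did not always give the same value. Of 35 genes with more than 1 probe, 12 had one that passed and one that did not, and 16 had at least 2 that passed. The means of passed probes spread by a median of 0.14 and by up to 0.33, at Kcnq1ot1. The first 30 of 60 bases of probes that disagreed are shown for Kcnma1 and Kcnt2, with the probe's mm9 position and strand as the files give them. The exon or UTR that each probe lies in was not analysed here.
Kcnma1, ratio -0.33, chr14:24126279-24126338, minus: tgggtgggcagtcaatgtatacatgtaaat
Kcnma1, ratio -0.20, chr14:24118701-24118760, minus: agattccttgatgcacatttctcttctttc
Kcnma1, ratio -0.06, chr14:24130916-24130975, minus: tggtgatctgttctgcaaagctctgaaaac
Kcnt2, ratio 0.38, chr1:142506210-142506269, plus: ttccaaacagtgaacccagtaggaaaaaca
Kcnt2, ratio 0.08, chr1:142506597-142506656, plus: taaagcattattaagactgtatgaacattt

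Tandem-pore channels carry the leak current that sets the resting voltage, and 10 of 14 were measured with a median ratio of -0.04. Kcnk2, a channel opened by stretch, had ratios of 0.07 and 0.68, and a mean of 0.38 ± 0.43 (n = 2). It read 9.23 and 9.44 in Rbpj-cKO and 9.16 and 8.76 in control, so the gap came from the female array. Kcnk3, an acid-sensitive channel, had ratios of 0.12 and -0.27 and a mean of -0.08. Kcnk7 had the lowest mean of the family at -0.31, with ratios of -0.17 and -0.44, and -0.69 with Agilent's processed signals. Among the small single-span subunits Kcne4 had ratios of 0.06 and -0.61.

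**Figure D4:**
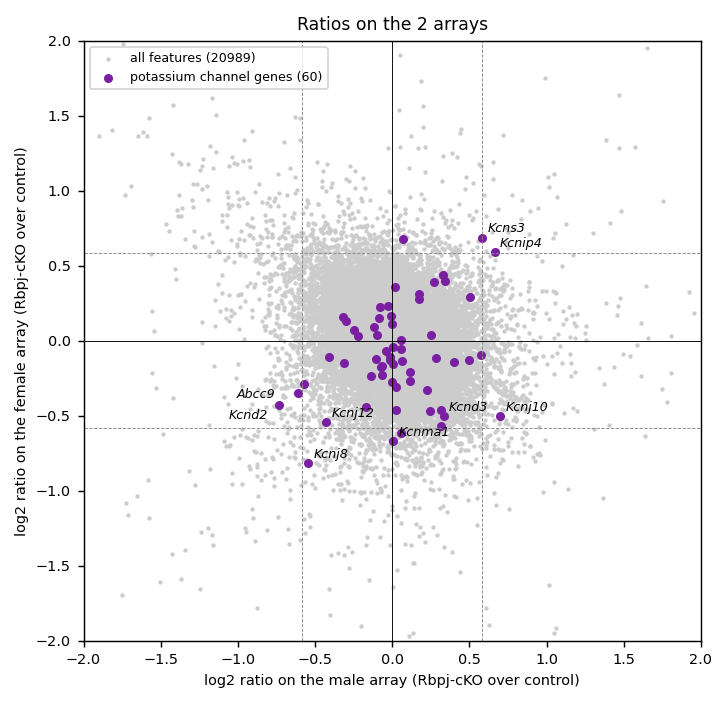
Log2 ratio of Rbpj-cKO over control on the male array (x axis) and the female array (y axis) for all 20989 features in grey and the 60 measured potassium channel genes in purple, with dashed lines at 1.5-fold and 32 features outside the axes. Kcnip4 alone among these genes lies past 1.5-fold on both arrays, Kcnj8, Abcc9, Kcnd2 and Kcnj12 lie below 0 on both, and Kcnj10 and Kcnd3 lie on opposite sides.

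Genes outside the name rule that work beside potassium channels gave no call either, beside 0.129% of all features. Over all features 19.7% were below 0 on both arrays and 21.7% above. Of 9 measured partners (10 listed) 3 were below 0 on both arrays and 1 above, with Lrrc55 lowest and Dpp10 highest. Of 17 measured pumps and cotransporters (21 listed) 1 was below 0 on both and 3 above. Fxyd1, a regulator of the sodium pump, was lowest at -0.10. Atp4a, the gastric proton pump that exchanges potassium, was highest at 1.07, with ratios of 1.96 and 0.18, and 2.33 with Agilent's processed signals. It passed the filter through the Rbpj-cKO channels and was above background in 1 of 2 control channels, so no test is drawn from it. Of 21 measured depolarising channels (24 listed) 7 were below 0 on both and 5 above. Hcn3, a pacemaker channel, was highest at 0.26, and 0.48 with Agilent's processed signals. The pore of the L-type calcium channel, Cacna1c, did not pass the filter. By limma 3 of the 47 measured genes of these lists had an unadjusted p under 0.05, beside 3.37% of all features. Among them Lrrc55 and Atp4a each missed background in a channel and passed the filter through the group where they are high. The count is therefore no evidence of a difference.

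Markers of cell types that the samples could hold are given beside these genes. The marker lists were chosen with earlier results of these data known, so their counts are no independent evidence. For comparison, 19.7% of all features were lower and 21.7% higher on both arrays, and 0.129% passed the adjusted threshold. All 8 smooth muscle markers were measured, 7 were lower in Rbpj-cKO on both arrays and 1 was higher, with a median ratio of -0.32. Their summed linear intensity was 640612 to 643523 in Rbpj-cKO and 727688 to 802102 in control. Pericyte markers (7 of 7 measured) summed to 57550 to 69016 in Rbpj-cKO and 62478 to 67713 in control, and 3 were lower and 0 higher on both arrays. Urothelial markers (9 of 9 measured) summed to 783877 to 831874 against 640743 to 692611, and 7 were higher on both. Of 7 measured skeletal and cardiac muscle markers (8 listed, Myog not above background) all were lower on both arrays, and 3 of them passed the adjusted threshold: Myh6, Ckm and Myl4. They summed to 23355 to 27440 in Rbpj-cKO and 50585 to 55306 in control. Nerve and glia markers (9 of 9) had medians of 0.49 (male array) and -0.30 (female array) and summed to 20501 to 22829 against 19229 to 43430.

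Endothelial markers (6 of 6) summed to 53377 to 53638 in Rbpj-cKO and 58519 to 60129 in control. The list for kidney epithelium (4 of 6, Umod and Slc12a1 not above background) summed to 4740 to 5219 against 2961 to 3407. Of that list 3 were higher and 1 lower on both arrays. Six2, a marker of nephron progenitors rather than epithelium, had its highest mean at 1.17, with ratios of 1.48 and 0.86. Mesothelial markers (5 of 5) summed to 182664 to 207175 against 148682 to 170654, and 3 were higher and 0 lower on both arrays. Most of each sum came from Krt19 (log2 levels of 16.72 to 17.33), with ratios of 0.01 (male) and 0.61 (female). Lrrn4 (1.01 and -1.63) and Wt1 (0.50 and -0.21) had opposite signs on the arrays, and Upk3b stands in the urothelial list too. Markers of interstitial pacemaker cells (4 of 4) summed to 80054 to 89917 against 77075 to 83135. Of the 3 adipocyte markers Fabp4 alone was measured, at 152294 to 198764 against 148232 to 190535. The part of these markers in the values of Kcnj8, Abcc9 and the other potassium channel genes was not tested. In RNA of the whole ureter, fewer cells of a type and less RNA per cell cannot be told apart.

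**Figure D5:**
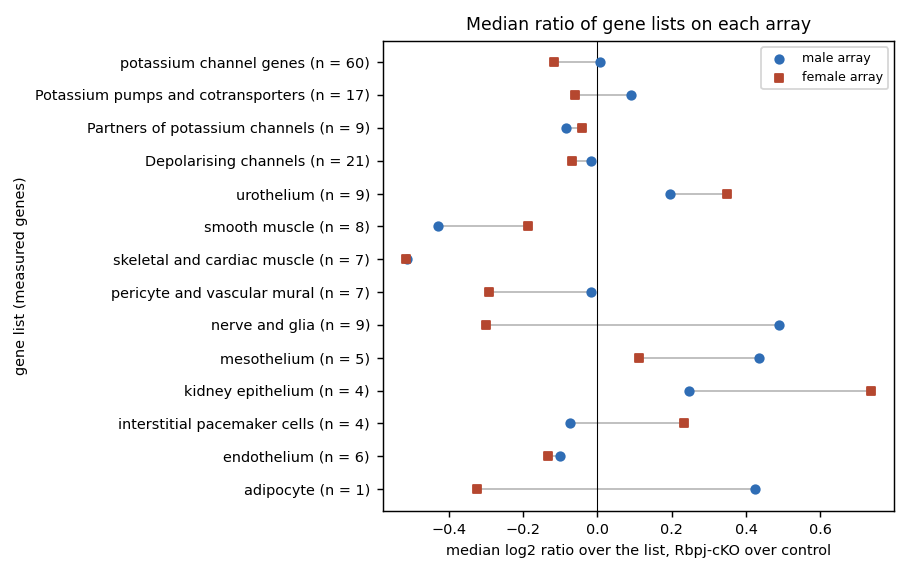
Median log2 ratio of Rbpj-cKO over control (x axis) over each gene list (y axis, with the number of measured genes), with the male array as circles and the female array as squares. The 60 potassium channel genes lie at 0.01 and -0.12, smooth muscle markers lie below 0 on both arrays, urothelial markers above 0 on both, and nerve and glia markers on opposite sides.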

How the data were processed

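Both arrays were 2-colour Agilent arrays of E18.5 ureter RNA, 1 male and 1 female, with the dyes swapped. Per the submitters' processing notes, Agilent Feature Extraction 10.7.3.1 was used. Per the file headers, the deposited mean and background signals are an intensity without normalization, whereas processed signals were background-subtracted and dye-normalized by the scanner software. The deposited value table holds a score per probe. Comparison with the scanner values showed signed folds, Rbpj-cKO over control, of processed signals. With a floor of 15.8 (male) and 13.8 (female) under those signals, 100% of 39030 probes of 1 spot matched within 0.001 on the log2 scale. Its column medians were 1.

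Mean signals were corrected with limma 3.58.1 (R 4.3.3) by normexp against the median background (offset 50) and by loess within arrays, with control spots at weight 0. Spots marked as outliers were left out (200 and 274; 1 on a potassium channel gene), and spots of a probe were averaged. Of 39429 probes, 26412 were named through RefSeq accessions (GRCm38.p6), the others by the files. A gene took its kept probe of highest mean intensity, which gave 20989 features. Ratios were tested with lmFit and eBayes, two-sided, with 1 residual and 10.3 prior degrees of freedom and Benjamini-Hochberg adjustment over all features. The fit was tested on simulated data. Channel levels are log2 values after loess and Aquantile.

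The same slide and scan hold both arrays, so neither could be tested as a batch. The potassium channel genes, the marker lists and the lists of partners, pumps and depolarising channels were chosen with earlier results of these data known. Genes were named by a rule: 13 channels of smooth muscle or of the ATP-sensitive complex, the 8 highest and 8 lowest means, the extremes of each family and list, those past a threshold, and Rbpj. Kcnj10, Kcnd3, Kcnip3, Kcnmb4, Kcnq1, Kcnh5, Dpp6, the genes that missed background in a channel and the markers named were chosen after their values were seen. Some genes that the rule names are not reported here. Alternatives were the background correction, dye normalization, filter, probe rule, prior variance, outlier spots, offset and value table.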

Additional observations from a re-analysis of the deposited data

Results flagged for a closer look

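Kcnj10 had ratios of 0.70 (male array) and -0.50 (female array), a gap of 1.20 on the log2 scale. It is given because the arrays moved in opposite directions with a gap at least as wide as 1.5-fold up on one and 1.5-fold down on the other. The difference between the sexes was not tested, and sex and dye orientation cannot be told apart with 1 array of each. Nerve and glia markers had medians of 0.49 and -0.30 on the same arrays, and their part in this value was not tested.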

How the results depend on the processing

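Under all 10 settings, the reported one included, 0 potassium channel genes passed the adjusted threshold by limma, while the share with an unadjusted p under 0.05 ran from 5% (3 of 60, median centring, 1.08% of all features) to 20% (12 of 60, processed signals, 4.02%; value table, 3.9%). Calls over all features were less steady: 0 with processed signals, with median centring, with no filter on dim probes and with the value table, 10 with probes averaged per gene and 41 with an intensity trend, against 27. The number of potassium channel genes at least 1.5-fold higher on both arrays was 3 with processed signals, 2 with the value table, 2 with a normexp offset of 16 and 0 with the mean of probes, and the number that much lower was 1 with processed signals and 1 with the value table, in each case Kcnk7. Kcnc2 and Kcnh5 were among the genes counted as higher with processed signals, and Kcnc2 with the value table. Both passed the filter through the Rbpj-cKO channels, so those counts are no evidence of a difference. With no filter 23 of 97 genes were higher on both arrays. For these counts by fold or sign, the shares of all features at the same settings are not given here. No excess is therefore read from them. Median centring gave Kcns3 in place of Kcnip4 past 1.5-fold. Kcnmb1 turned to 0.031 with processed signals and with the value table and to 0.020 with median centring. The cause was not tested. Rbpj passed with the filter in all channels (adjusted p = 0.0455) and with the intensity trend (0.0127). Leaving out an array leaves the single ratios given above, with no test and no count of calls. No paired analysis was possible because the arrays form 1 group, and the pairing of Rbpj-cKO with control lies within each array's ratio. Some dim genes moved widely with the processing, among them Kcnc2 (0.37 to 1.19), Atp4a (1.07 to 2.33) and Lrrc55 (-1.91 to -0.69).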
